A study of Mus musculus with 52 samples.

Results

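The BBSome is a protein coat of 8 subunits that carries membrane receptors into and out of the primary cilium on intraflagellar transport trains. Its subunits are encoded by Bbs1, Bbs2, Bbs4, Bbs5, Bbs7, Ttc8 (the Bbs8 gene), Bbs9 and Bbip1, and it is recruited to membranes by the small GTPase Arl6. Together these are the 9 genes described here, of 24421 gene symbols counted in the series. They were picked as a protein complex, by symbol and with no threshold on a measured value, although earlier results of these data were known, and all 9 passed the expression filter in each comparison. Inherited loss of function of these genes is known to cause Bardet-Biedl syndrome in humans, with kidney disease among its features. In cells, the retrograde motor dynein-2, of which Wdr34 and Wdr60 are the intermediate chains, returns trains and their BBSome cargo from the ciliary tip.

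Each gene was counted by RNA sequencing in 52 libraries of 13 clones of Cilia-APEX-IMCD3 cells, an immortalised mouse inner medullary collecting duct line, with 4 libraries from each clone. The ciliated clones were 3 mutants (Wdr60, and Wdr34 clones labelled 1 and 3) and 4 controls (D8, H12, A4 and G7), and the non-ciliated clones were 2 mutants (Wdr34 and Wdr60) and 4 controls (AB, 1, 2 and 3). Per the labels the mutants are homozygous, CRISPR-treated cells. The study made them with a cytosine base editor (BE4-Gam), and its controls received the editor with a guide vector that had no target. It introduced an alanine-to-valine change in Wdr60, and an arginine-to-tryptophan and a glycine-to-serine change in Wdr34, in separate lines. The labels do not say which Wdr34 clone carries which allele, but by the study's account the glycine-to-serine line was made too late for the non-ciliated sequencing. Every group is built from single-cell clones. The study's methods name 4 different control and 3 different mutant clones, so a clone may have been sequenced in both states. The labels do not link clones across states, and each clone in a state is counted here as 1 of the 13. Comparisons across states did not pair them, so the 13 may not all be independent. Unintended heterozygous changes close to the target were described in the Wdr60 line (synonymous) and in the glycine-to-serine Wdr34 line (glycine to aspartate). The labels give the same 10% serum for all libraries, whereas the study starved cells of serum to obtain cilia, so state, serum and sequencing run cannot be told apart. Libraries of a clone are technical replicates, so that p-values of a single clone over libraries measure mainly technical spread. Where the mutants of a state are 1 group, the spread also holds differences between clones, but libraries are counted as independent samples. Values are CPM, the count of a gene relative to its library's total with TMM scaling over all libraries, and group values are means ± SD of clone means.

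Library totals ran from 14816218 to 28084979 counts, so that 1 CPM stood for 14.8 to 28.1 counts, and the 9 genes had 38 to 1421 counts in a library. Fewer expressing cells and less RNA per cell cannot be told apart in these bulk samples. In 4 of 52 libraries the spread of log2 CPM about the clone mean exceeded 0.37, against 0.21 to 0.36 in the others, and these were replicate 1 of non-ciliated Wdr60, of AB and of A4 and replicate 2 of ciliated Wdr60. The summed level of 12 collecting duct and kidney epithelial markers was 1090 to 4780 CPM over all clones, but Aqp2 was at or near 0. The 2 control clones G7 and control 2 were low in Epcam and Cdh1, at under 20 CPM each. Epcam was 13.5 CPM in G7 and 2.86 CPM in control 2, against 183 to 837 CPM in the other 6 control clones. The same 2 clones were the highest controls of their state for the kidney epithelial genes Cdh16 (841 and 266 CPM), Pax2 (310 and 277), Pax8 (419 and 300) and Hoxb7 (83.4 and 55.3). They also had the highest proximal tubule marker sums, 447 and 272 CPM against 4.61 to 96.5 CPM elsewhere, nearly all from Lrp2. Fibroblast markers summed to 31.3 CPM in ciliated Wdr34 clone 3 (Dcn 29.2 CPM) and to 1.38 to 5.67 CPM in the others. Endothelial markers summed to at most 0.186 CPM. Multiciliated cell markers summed to 9.5 CPM in G7 and 16.9 CPM in control 2, the lowest clones. In the Wdr60 clones they summed to 128 CPM (ciliated) and 125 CPM (non-ciliated), the highest of each state. Among ciliated clones the kidney epithelial marker sum was 1790 CPM in G7 and 1920 CPM in Wdr34 clone 3, against 3340 to 4780 CPM in the others. The part of these differences in the results below was not tested beyond leaving out G7 and control 2. Because the edits change single bases, the level of the edited gene does not check the labels. Wdr34 was 21.7 CPM in the ciliated Wdr34 clone 3, below its 4 controls (30.9 to 44 CPM), and 46.2 CPM in clone 1.

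All 9 genes matched a RefSeq gene of GRCm38.p6, the build to which the reads were aligned. Bbs1 lies on the minus strand of chromosome 19 (4886878 to 4906653) and Bbip1 on the minus strand of the same chromosome (53929656 to 53944627). Bbs9 (22475559 to 22888283, plus strand) and Bbs4 (59321966 to 59353508, minus strand) share chromosome 9. The other genes are Bbs5 on chromosome 2 (69646848 to 69667571, plus strand), Bbs7 on chromosome 3 (36573142 to 36613492, minus strand), Bbs2 on chromosome 8 (94067952 to 94099369, minus strand), Ttc8 on chromosome 12 (98920537 to 98983250, plus strand) and Arl6 on chromosome 16 (59612949 to 59639409, minus strand). In GENCODE vM21, exons of Bbs4, Bbip1 and Arl6 overlap exons of a gene on the opposite strand (Adpgk, Shoc2 and 4930547E14Rik) over 3.21%, 2.2% and 2.62% of their exonic bases, and the strand setting of the counting is not given in the sources used here.

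The promoters of the 3 genes with the widest range over clones are shown, because the largest differences below concern their RNA. Each window runs from 250 bases before to 50 bases after a RefSeq transcript start (GRCm38.p6), which for these 3 genes lies inside the gene span given above and not at its outer end, written 5′ to 3′ on the gene's own strand. The capitals mark GTTGCC, searched on both strands. It is the half-site of the X-box, which RFX factors bind in promoters of ciliary genes. The windows are chr19:4906578-4906877 (minus strand) for Bbs1, chr3:36613340-36613639 (minus strand) for Bbs7 and chr12:98920324-98920623 (plus strand) for Ttc8.
Bbs1: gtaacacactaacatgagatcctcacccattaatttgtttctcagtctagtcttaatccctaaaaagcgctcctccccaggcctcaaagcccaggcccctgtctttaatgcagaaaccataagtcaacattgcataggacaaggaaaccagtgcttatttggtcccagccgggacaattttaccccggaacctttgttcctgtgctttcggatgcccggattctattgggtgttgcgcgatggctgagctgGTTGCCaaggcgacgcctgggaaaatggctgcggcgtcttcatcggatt
Bbs7: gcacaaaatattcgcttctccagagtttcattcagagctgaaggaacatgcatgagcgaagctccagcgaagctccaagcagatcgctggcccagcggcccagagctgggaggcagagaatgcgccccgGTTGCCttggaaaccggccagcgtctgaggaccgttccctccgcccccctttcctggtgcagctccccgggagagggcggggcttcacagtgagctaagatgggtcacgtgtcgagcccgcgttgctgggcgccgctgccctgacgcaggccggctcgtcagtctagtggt
Ttc8: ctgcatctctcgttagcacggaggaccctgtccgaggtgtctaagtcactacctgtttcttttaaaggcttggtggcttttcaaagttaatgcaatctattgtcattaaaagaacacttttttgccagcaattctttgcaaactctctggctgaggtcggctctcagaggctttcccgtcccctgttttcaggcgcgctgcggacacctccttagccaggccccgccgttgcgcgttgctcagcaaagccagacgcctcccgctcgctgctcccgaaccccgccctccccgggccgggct
The half-site begins at base 2 of the Bbs1 transcript of that window and 121 bases before the transcript start of the Bbs7 window, and these letters are not in the Ttc8 window. Of the 10 windows of the 9 genes, 3 (30%) hold it (Bbs1, Bbs5 and Bbs7), against 12.8% of 13219 windows of the genes tested and 12.5% of all 32851 RefSeq windows of this length. A match describes the sequence and does not show binding.

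Compared per length, the Arl6 RNA was the most abundant of the 9. The mean level over 13 clones was 13.1 CPM per kb of annotated exon for Arl6 and 9.01 for Ttc8. Next were Bbip1 at 6.7, Bbs5 at 5.35, Bbs1 at 4.75 and Bbs2 at 3.78 CPM per kb. The lowest levels per kb were those of Bbs9 (2.87), Bbs4 (2.24) and Bbs7 (1.41), the last of which encodes a β-propeller subunit that pairs with Bbs2 in the core of the complex. Exon lengths are unions over all annotated transcripts of GENCODE vM21, whereas the study counted with an iGenomes annotation. Genes with close values are therefore not ranked apart by them, and the order depends on these lengths. Before division by length Bbs1 was the highest, at 36.5 CPM over 7.67 kb, against 27.6 CPM over 2.1 kb for Arl6.

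**Figure D1:**
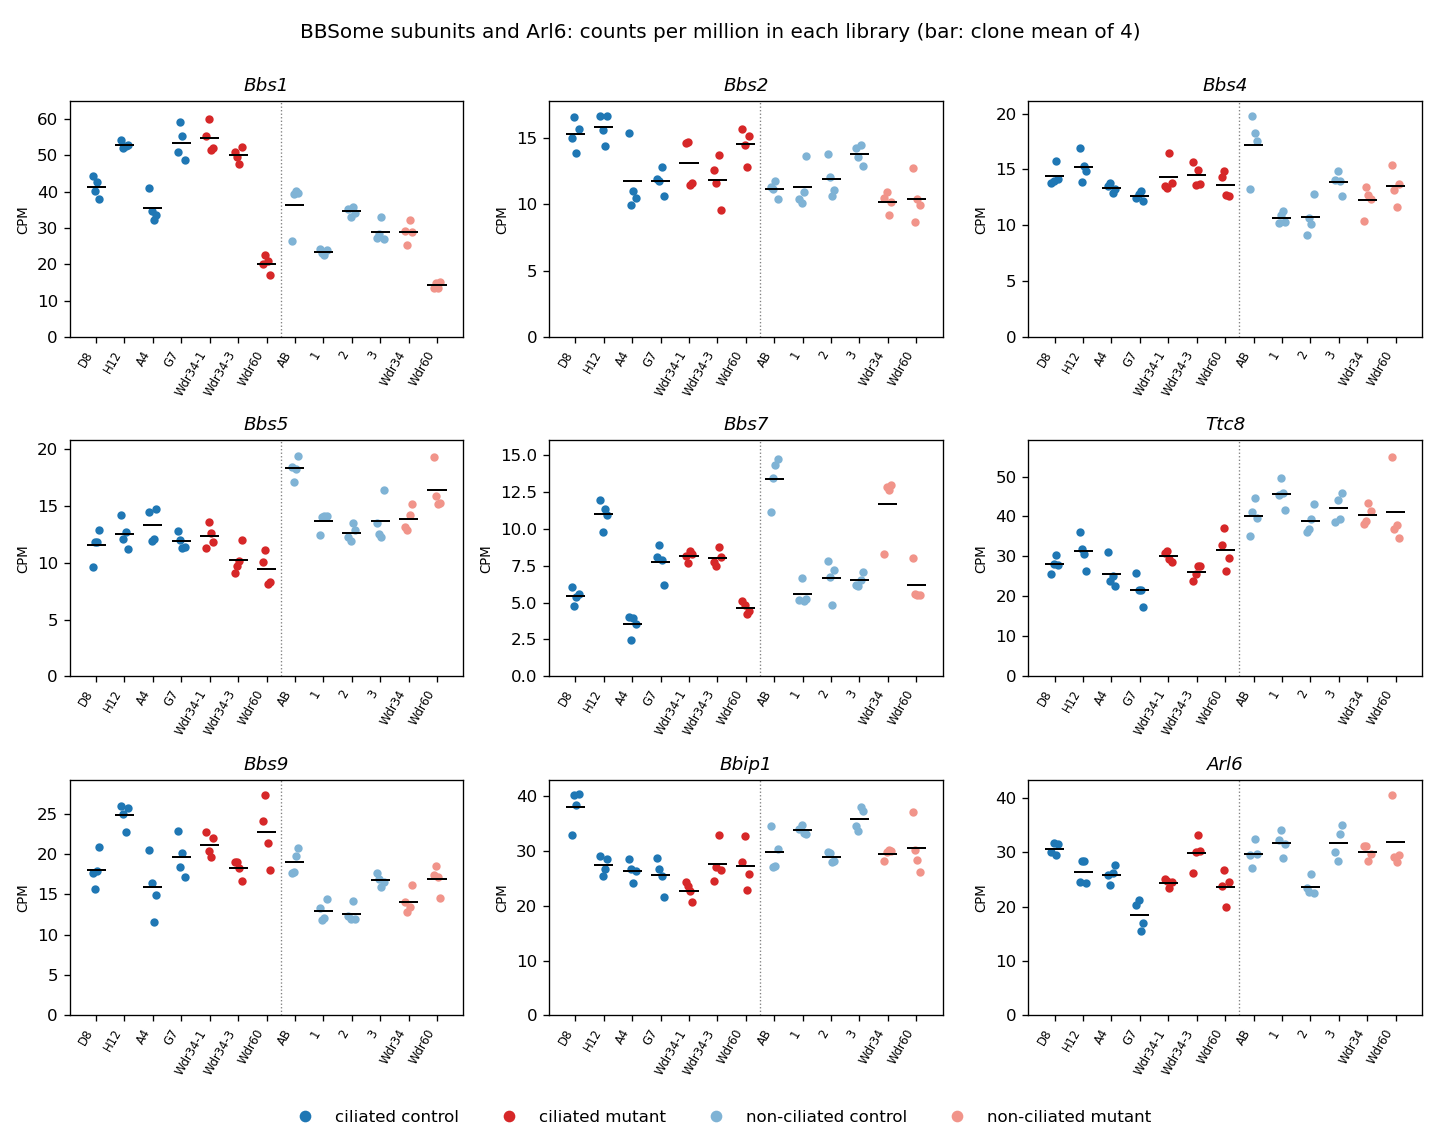
Level of each of the 9 genes (y axis, CPM, from 0) in each library (points) of 13 clones (x axis; Wdr34-1 and Wdr34-3 are the Wdr34 clones labelled 1 and 3), with the clone mean as a bar and a dotted line between ciliated and non-ciliated clones. Bbs1 is lowest in the Wdr60 clone of each state, and Ttc8 is lower in all 7 ciliated clones than in all 6 non-ciliated clones. The share of all genes split like Ttc8 over all clones is not given here.

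Bbs1 encodes a β-propeller subunit through which Arl6 binds the complex, and it had the widest range of the 9 genes, 3.85-fold between clone means. In ciliated controls its level was 41.2 ± 2.73 CPM in D8, 52.8 ± 0.997 in H12, 35.4 ± 3.84 in A4 and 53.5 ± 4.67 in G7 (mean ± SD of 4 libraries). Among the ciliated mutants it was 54.7 ± 3.92 CPM in Wdr34 clone 1, 50.1 ± 2.09 in Wdr34 clone 3 and 20.2 ± 2.3 in Wdr60. The Wdr60 clone thus lay below all 4 controls, while Wdr34 clone 1 lay just above them and clone 3 within them. In non-ciliated controls Bbs1 was 36.4 ± 6.72 CPM in AB, 23.5 ± 0.754 in 1, 34.6 ± 1.21 in 2 and 28.9 ± 2.8 in 3. The non-ciliated mutants had 28.8 ± 2.83 CPM (Wdr34) and 14.2 ± 0.859 CPM (Wdr60), and again only the Wdr60 clone was below all controls. Over all 13 clones the Wdr60 clones held the lowest positions, and the next clone was non-ciliated control 1 at 23.5 CPM.

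Against the mean of the 4 controls of its state, the Wdr60 clone had 44.2% of the Bbs1 level in ciliated and 46.2% in non-ciliated cells. The log2 fold change was -1.17 (SE 0.07, Benjamini-Hochberg (BH) adjusted p = 4.66e-13) in ciliated and -1.10 (SE 0.09, adjusted p = 3.62e-10) in non-ciliated cells (edgeR quasi-likelihood test, libraries as samples). The difference was called under all 17 alternatives tried in each state, and over the 15 of them that refitted the value the log2 fold changes were -1.28 to -1.08 and -1.23 to -1.01. Since each state has 1 Wdr60 clone, a change of genotype and a change of that clone cannot be told apart. The labels do not say whether the same clone was used in both states. The study describes 1 Wdr60 mutant clone, so both states probably show that clone and are not independent observations. A fall below all 4 controls, called in both states, was seen for 1 of the 9 genes and for 4.07% of the 12177 genes tested in both. With a log2 fold change of -1 or less in both states as well, that share was 1.03%, Bbs1 again being the 1 gene of the 9.

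The genes directly beside Bbs1 differed less than it did. Zdhhc24, its neighbour on one side, was 19.8 CPM in the ciliated Wdr60 clone and 22.4 CPM in the controls (log2 fold change -0.18, SE 0.07, edgeR adjusted p = 0.0327), and its non-ciliated log2 fold change was -0.02 (SE 0.09). Dpp3, on the other side, had 165 CPM against 154 CPM in ciliated cells (log2 fold change 0.09, SE 0.08) and 244 against 235 CPM in non-ciliated cells (0.06, SE 0.08). Peli3, beyond Dpp3, had 1.29 against 2.35 CPM in ciliated cells (-0.69, SE 0.20, edgeR adjusted p = 0.00624) and 0.477 against 0.861 CPM in non-ciliated cells (-0.78, SE 0.37, edgeR adjusted p = 0.0854). Over the 20 nearest tested genes the median log2 fold change was -0.04 in ciliated and 0.02 in non-ciliated cells, with 6 and 5 of them called lower and 1 called higher in each. The Bbs1 log2 fold change was below that of each of these 20 genes, although Cnih2 came close to it in non-ciliated cells (-1.07). By chromosome, the median log2 fold change of the Wdr60 clones was -0.08 and -0.07 on chromosome 19, whereas it was 0.31 in both states on chromosome 5 and -0.36 and -0.39 on chromosome 6, which hold none of the 9 genes. The neighbouring genes were examined after the Bbs1 values were seen.

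**Figure D2:**
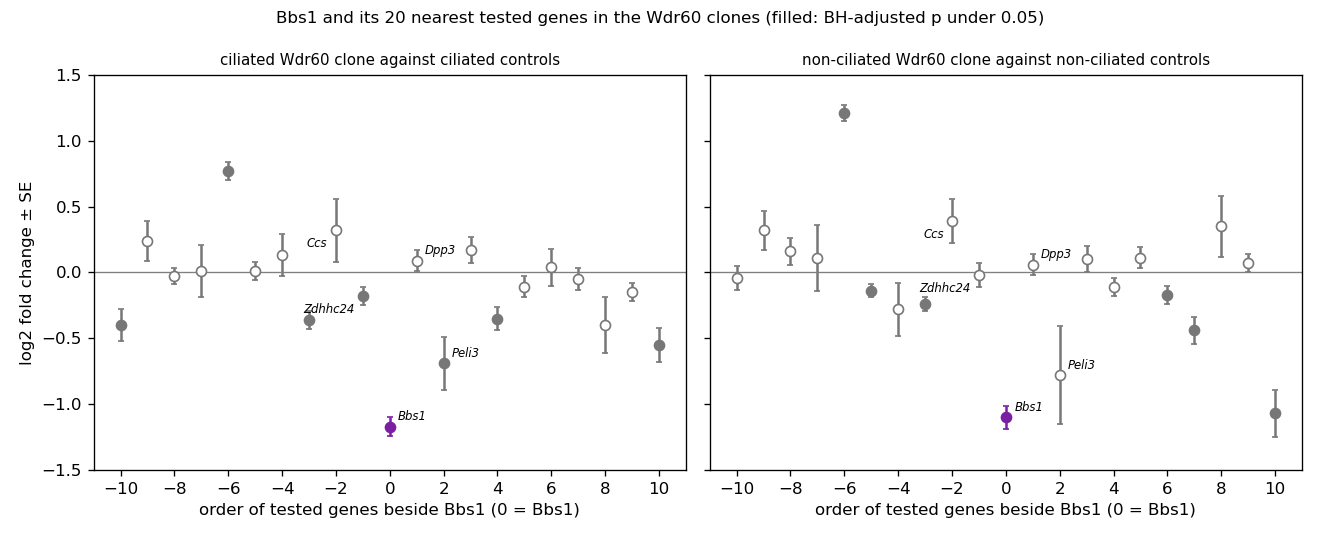
Log2 fold change ± SE (y axis) of Bbs1 (purple) and the 10 nearest tested genes on each side, in order along the chromosome (x axis), in the Wdr60 clone of each state against 4 control clones. Bbs1 is at -1.17 and -1.10, while its direct neighbours Zdhhc24 and Dpp3 lie between -0.18 and 0.09.

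The other genes were next compared in each single mutant clone, with libraries as samples, which addresses how far the mutant lines resemble one another. In the ciliated Wdr60 clone, 1 of the 9 genes was called higher and 3 lower, against 23.4% and 21% of all genes tested. Ttc8 was higher (31.5 CPM, log2 fold change 0.24, adjusted p = 0.0331, called in 10 of 17 alternatives), and Bbs1, Bbs5 and Bbs7 were lower. Bbs5, a subunit with pleckstrin homology domains, was 9.42 ± 1.45 CPM against 11.6 to 13.3 CPM in the 4 controls (-0.40, adjusted p = 0.00114). Bbs7 was 4.67 CPM and within the controls' range of 3.53 to 11 CPM, although called (-0.46, edgeR adjusted p = 0.000772). Over the alternatives the Bbs7 value was -0.74 to -0.19, and the call was lost without H12 (adjusted p = 0.171).

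In ciliated Wdr34 clone 1, 2 genes were called higher and 1 lower, with 17.4% and 16.1% of all genes as background. Bbs1 was called higher (0.27 on the log2 scale) and so was Bbs7 (0.35), although its 8.19 CPM lay within the controls. Neither was called without A4, and the Bbs7 value was 0.07 to 0.62 over the alternatives (edgeR adjusted p up to 0.565). Bbip1, the smallest subunit, was called lower at 22.8 ± 1.55 CPM against 25.6 to 38 CPM in controls (-0.36, SE 0.09, edgeR adjusted p = 0.0018), a call lost without D8.

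In ciliated Wdr34 clone 3, Bbs7 (0.32) and Arl6 (0.24) were called higher and Bbs5 (10.2 CPM, -0.28, edgeR adjusted p = 0.0124) lower, where 27.4% and 24.9% of all genes were called. Bbs7 (8.04 CPM) and Arl6 (29.9 CPM) lay within the controls, at 3.53 to 11 and 18.5 to 30.7 CPM. Over the alternatives Bbs7 was 0.04 to 0.59 (edgeR adjusted p up to 0.749) and Arl6 0.10 to 0.34 (up to 0.218). The Bbs7 call was lost without D8, A4 or the replicate libraries numbered 4, that of Arl6 without G7 or those numbered 3 or 4, and that of Bbs5 without those numbered 1, 2 or 3. With controls at 11.6 to 13.3 CPM, Bbs5 was 10.2 CPM in this clone, 9.42 CPM in ciliated Wdr60 and 12.4 CPM in Wdr34 clone 1. The share of all genes with such a pattern is not given here.

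In non-ciliated cells the Wdr60 clone had 0 of the 9 genes higher and 1 lower, Bbs1, with 25.3% and 21.8% of all genes called. Leaving out the libraries that stood apart gave 5 called lower, Bbs1 with Bbs2, Bbs7, Ttc8 and Bbip1, where 68.1% of all genes were called in either direction. Other omissions gave higher calls, of Bbs4, Bbs5 and Bbs9 without AB (61.3% of all genes called), of Bbs5 and Bbs9 without replicate libraries numbered 4 (35.9%), and of Bbs9 without control 3 (43.3%), so that beyond Bbs1 the calls in this clone changed with the samples used. In that clone replicate library 1 had 54.9 CPM of Ttc8, against 34.7 to 37.8 CPM in the other 3. The non-ciliated Wdr34 clone had 1 gene higher, Bbs7 (11.7 ± 2.26 CPM, 0.63, SE 0.12, edgeR adjusted p = 9.6e-05), and 1 lower, Bbs2 (10.2 ± 0.74 CPM, -0.24, SE 0.09, edgeR adjusted p = 0.0343), against 24.2% and 20.8% of all genes. The Bbs7 value lay below AB (13.4 CPM), and the Bbs2 call was kept in 10 of 17 alternatives and lost without control 3 or replicate libraries numbered 2, 3 or 4.

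**Figure D3:**
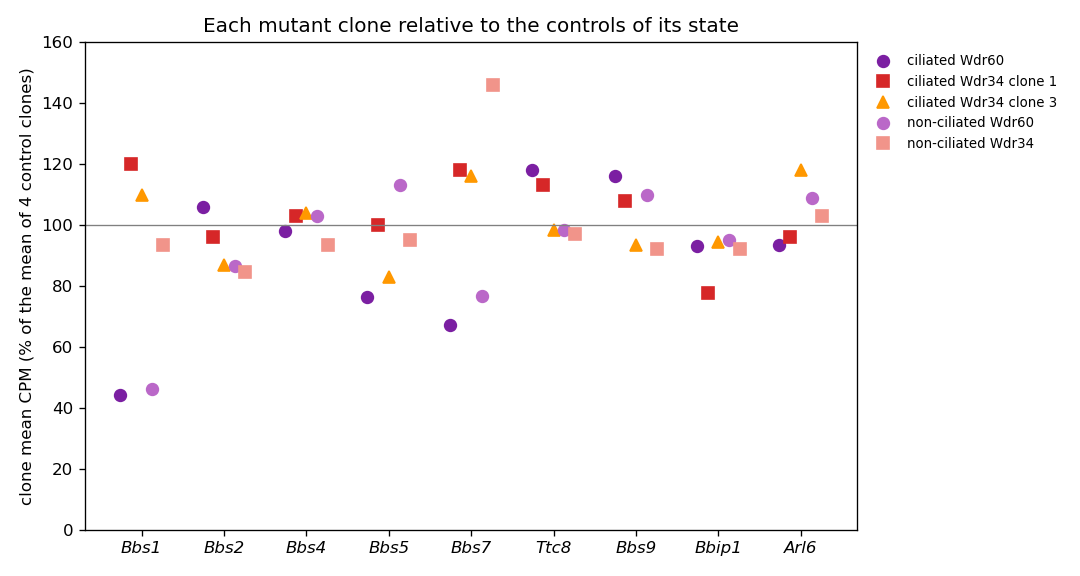
Clone mean of each of the 9 genes as a percentage of the mean of the 4 control clones of its state (y axis, from 0), for the 5 mutant clones. Bbs1 is at 44.2% and 46.2% in the Wdr60 clones, and the highest value is Bbs7 at 146% in the non-ciliated Wdr34 clone.

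When the mutant clones of a state were compared as 1 group, no gene of the 9 was called in ciliated cells, where 4.57% of 12678 genes were. An unadjusted p under 0.05 was found for 20.4% of all genes and for 2 of the 9, Bbs5 (10.7 ± 1.52 against 12.3 ± 0.761 CPM, log2 fold change -0.22, SE 0.08, edgeR adjusted p = 0.113) and Bbip1 (25.9 ± 2.74 against 29.3 ± 5.8 CPM, -0.19, SE 0.09, adjusted p = 0.241). DESeq2 called 0 as well, with 6.8% of all genes called. Without Wdr34 clone 1, Bbs5 was called at -0.34 (edgeR adjusted p = 0.0205), where 6.42% of all genes were called. The remaining 7 genes had log2 fold changes of -0.15 (Bbs1) to 0.12 (Ttc8). Clone means of mutants and controls overlapped for all 9 genes, whereas they did not for 1.89% of all genes. By exact 2-sided permutation over 3 and 4 clones, whose smallest p is 0.0286, the lowest p was 0.114, for Bbs5 (BH-adjusted 1).

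In non-ciliated cells 1 of the 9 genes was called, Bbs1, lower in mutants (21.5 ± 10.3 against 30.8 ± 5.86 CPM, log2 fold change -0.52, SE 0.17, edgeR adjusted p = 0.036). Of all 12388 genes, 15.7% were called and 8.8% were lower. This fit counts the libraries of 6 clones as samples, and the call did not hold at the level of clones. With libraries summed per clone the edgeR adjusted p was 0.976 and 0 genes of all tested were called, and voomLmFit with a clone block gave an adjusted p of 0.585 and called 0.0646% of all genes. Without the Wdr60 clone the value was -0.09 (adjusted p = 0.727), and the call was kept in 8 of 21 alternatives. It was also lost without control AB (adjusted p = 0.065), 2 (0.092) or 3 (0.0604), and without replicate libraries numbered 2, 3 or 4. In the same comparison 3 of the 12 kidney epithelial markers were called lower (Cdh16, Pax2 and Pax8) and 1 higher (Aqp3), and their part in the Bbs1 value was not tested. By exact permutation over 2 and 4 clones p was 0.2, the smallest possible being 0.0667. Bbs2 was the 1 gene whose clone means did not overlap, as for 13.1% of all genes. Its level was 10.2 CPM in Wdr34 and 10.4 CPM in Wdr60, against 11.2 in AB, 11.3 in 1, 11.9 in 2 and 13.8 in 3 (log2 fold change -0.23, SE 0.08, edgeR adjusted p = 0.0648, exact permutation p = 0.133). Bbs2 was called in 5 of 19 refits, listed with the share of all genes called. These were DESeq2 (19.3%) and the fits without AB (31.3%), control 1 (18.1%), replicate libraries numbered 1 (21.9%) or the libraries that stood apart (28.3%). In the last of these its log2 fold change was -0.28 (edgeR adjusted p = 0.0166), and over all 19 it was -0.28 to -0.16. Bbs7 had a log2 fold change of 0.14 (SE 0.23). It was called without control AB (0.51, edgeR adjusted p = 0.0283), where 31.3% of all genes were called.

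Whether mutants and controls differed unequally in the 2 states was tested on summed libraries of the 13 clones, and edgeR called 0 of the 9 genes and 0% of 13994 genes. At an unadjusted p under 0.05 there were 136 genes, none of the 9 among them. For Bbs1 the difference was 0.39 (SE 0.51, adjusted p = 1). DESeq2 called 0 of the 9 genes too.

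**Figure D4:**
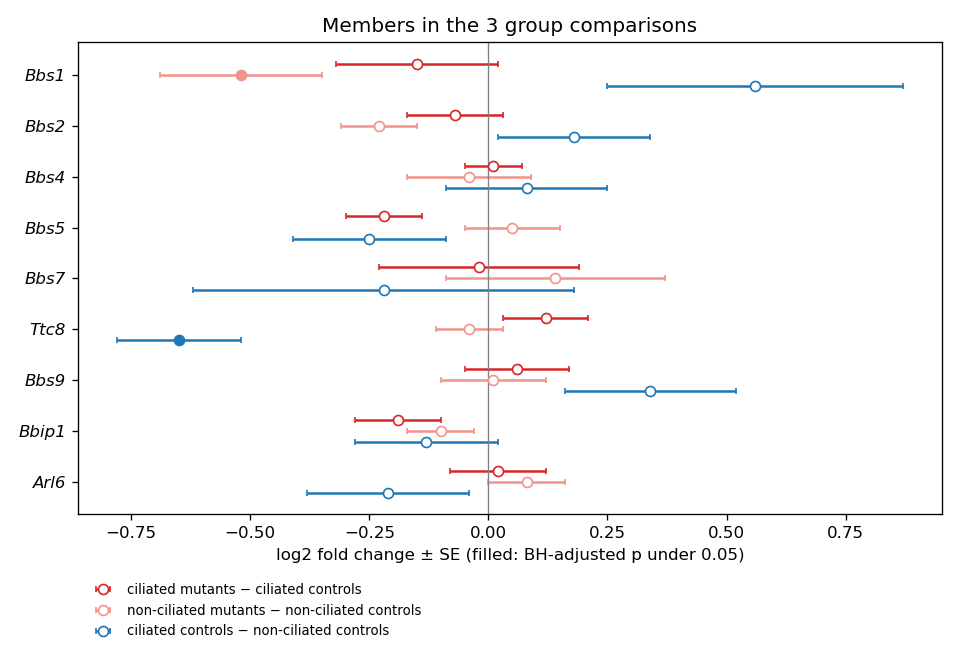
Log2 fold change ± SE (x axis) of each of the 9 genes in the 3 group comparisons, with filled points for a adjusted p under 0.05 over all genes tested. Mutant comparisons count libraries as samples and the state comparison counts clones. The filled points are Bbs1 in non-ciliated mutants (-0.52), not called with clones as samples, and Ttc8 in ciliated against non-ciliated controls (-0.65).

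The controls of both states were compared to describe each gene by state. Ttc8, whose product is a subunit made of tetratricopeptide repeats, was the 1 gene called of the 9, against 18.4% of 13994 genes (9.46% lower). In ciliated controls it was 28 ± 1.94 CPM in D8, 31.3 ± 4.05 in H12, 25.7 ± 3.82 in A4 and 21.6 ± 3.55 in G7. In non-ciliated controls it was 40.2 ± 3.92 CPM in AB, 45.7 ± 3.32 in 1, 38.8 ± 3.16 in 2 and 42.1 ± 3.61 in 3. The groups did not overlap, as was the case for 21.4% of all genes. The means were 26.7 ± 4.1 and 41.7 ± 2.95 CPM (log2 fold change -0.65, SE 0.13, edgeR on summed libraries, adjusted p = 0.00833). An exact permutation over 4 and 4 clones gave p = 0.0286, the smallest it can give (0.133 after BH adjustment over all genes). Of 24 alternatives 22 kept the call, and the log2 fold change was -0.70 without the libraries that stood apart and -0.60 without G7 and control 2.

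The mutant clones had Ttc8 at 30.1 CPM (Wdr34 clone 1), 26.2 CPM (Wdr34 clone 3) and 31.5 CPM (Wdr60) in ciliated cells, and at 40.5 CPM (Wdr34) and 41.1 CPM (Wdr60) in non-ciliated cells. All 7 ciliated clones therefore lay below all 6 non-ciliated clones, at 21.6 to 31.5 against 38.8 to 45.7 CPM. The share of all genes split this way over all clones is not given here, and the 21.4% above covers control clones only. Tested in the mutant clones in place of the controls, the difference was -0.49 (edgeR adjusted p = 0.0781). Over the 20 tested genes nearest to Ttc8 the median log2 fold change between states was 0.07, the lowest value was -2.04 (Kcnk10, 0.729 against 2.97 CPM), and 3 were called lower and 2 higher. In the same comparison of control clones 2 of 6 proliferation genes were lower, beside 9.46% of all genes. They were Top2a (768 ± 110 against 1020 ± 71.3 CPM) and Ccnb1 (83.6 ± 9.23 against 106 ± 8.81 CPM), and their part in the Ttc8 difference was not tested.

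The remaining 8 genes were not called by state. Bbs1 was 45.7 ± 8.9 CPM in ciliated and 30.8 ± 5.86 CPM in non-ciliated controls (log2 fold change 0.56, SE 0.31, edgeR adjusted p = 0.234, exact permutation p = 0.0571). The value of A4, 35.4 CPM, fell under that of AB, 36.4 CPM, so the groups overlapped. Bbs9, a core scaffold subunit, had 19.6 ± 3.82 against 15.3 ± 3.1 CPM (0.34, adjusted p = 0.211), and Bbs5 had 12.3 ± 0.761 against 14.6 ± 2.53 CPM (-0.25, adjusted p = 0.305). With libraries taken as samples, 61% of all genes were called and 6 of the 9, Bbs1, Bbs2 and Bbs9 higher and Bbs5, Ttc8 and Arl6 lower. Bbs4, a tetratricopeptide subunit that binds the centriolar satellite protein Pcm1, differed least, at 13.9 ± 1.16 and 13.1 ± 3.11 CPM (0.08, SE 0.17).

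Bbs7 varied most among control clones. In ciliated controls it was 5.43 CPM in D8, 11 in H12, 3.53 in A4 and 7.79 in G7, and in non-ciliated controls it was 13.4 in AB, 5.57 in 1, 6.65 in 2 and 6.51 in 3. H12 and AB were thus the high controls of their states. Among the mutants it ran from 4.67 CPM (ciliated Wdr60) to 11.7 CPM (non-ciliated Wdr34), all below AB. The coefficient of variation over the control clones was 46.5% in ciliated and 45.1% in non-ciliated cells, against medians of 22.6% and 18.6% over all genes tested and of 19.5% and 17.4% over the 9 genes. Its state difference was -0.22 (SE 0.40), and became 0.14 without AB.

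Among the other genes, Arl6 ranged from 18.5 CPM (G7) to 31.8 CPM (non-ciliated Wdr60), Bbip1 from 22.8 CPM (ciliated Wdr34 clone 1) to 38 CPM (D8) and Bbs9 from 12.6 CPM (control 2) to 24.8 CPM (H12). Bbs2 ranged from 10.2 to 15.8 CPM and Bbs4 from 10.7 to 17.2 CPM. When the 13 clones were put in order, neighbours differed by no more than the larger SD of their libraries in all 12 steps for Bbs2, Bbs9 and Bbip1. The step was larger in 1 of 12 cases for Bbs4, 2 for Bbs5, 3 each for Bbs7, Ttc8 and Arl6, and 6 for Bbs1, a comparison added after the values were seen. The 2 control clones low in Epcam and Cdh1, G7 and control 2, were the lowest controls of their state for Arl6 (18.5 and 23.7 CPM), Ttc8 (21.6 and 38.8 CPM) and Bbip1 (25.6 and 28.9 CPM). That held for 3 of the 9 genes and for 20% of all genes tested. It was noticed after the values were seen, and the part of the low Epcam level in it was not tested.

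The genes did not vary as a block. Correlation of log2 CPM with the mean of the other 8 over 13 clones, after removal of state means, was 0.66 for Bbs4, 0.57 for Bbs7 and 0.50 for Bbs9, and -0.04 for Bbip1. The highest pair was Bbs4 and Bbs9 (r = 0.74) and the lowest pairs were Bbs1 with Ttc8 and Bbs7 with Bbip1 (both -0.30). These are descriptions, since the genes were read in the same libraries with the same scaling. The non-members most like the mean of the 9 were Ptp4a3 (r = 0.95), 1810062G17Rik (0.90) and Frem2 (0.89) out of 13994 genes. Summed over the 9 genes, the level was 167.7 CPM in the ciliated Wdr60 clone and 217.4 CPM in H12, the lowest and highest clones.

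Genes that serve the BBSome were counted in the same comparisons, in which no mutant call of any gene was made with clones summed. Of 4 assembly chaperonin genes (Mkks, Bbs10, Bbs12 and Cct2), 0 were called in ciliated mutants and 1 was higher in non-ciliated mutants, Bbs12 (19.5 ± 2.71 against 14.4 ± 4.55 CPM, edgeR adjusted p = 0.0495), where 6.87% of all genes were higher. The lower of the mutant clones, at 17.6 CPM, lay under control AB at 20.2 CPM. By state 1 was lower, beside 9.46% of all genes. It was Cct2, a subunit of the general chaperonin (509 ± 172 against 982 ± 171 CPM, log2 fold change -0.95, edgeR adjusted p = 0.016). Of 10 regulators and partners, among them Lztfl1, Ift27 and Pcm1, 0 were called in the 3 group comparisons by edgeR, and 1, 5 and 2 had an unadjusted p under 0.05, beside 20.4%, 30.7% and 33.9% of all genes. Of 6 other Bardet-Biedl genes 1 was called, Cep290, lower in ciliated controls (35.2 ± 4.68 against 58 ± 11 CPM, log2 fold change -0.75), beside 9.46% of all genes. Only 3 of 6 receptor genes known as cargo passed the filter. Npy2r, with 0 to 2 counts in a non-ciliated mutant library, passed in that comparison through its controls (0.243 to 21.7 CPM), so its call there is not read as a result. Among 6 genes of the retrograde train complex IFT-A, 1 was lower in non-ciliated mutants, Ift140 (25.7 ± 4.93 against 33.3 ± 6.95 CPM, edgeR adjusted p = 0.0333), beside 8.8% of all genes. By state Ift140 was higher (51.4 ± 10.5 against 33.3 ± 6.95 CPM) and Ttc21b lower (14.6 ± 2.75 against 42.6 ± 8.88 CPM, log2 fold change -1.55, edgeR adjusted p = 0.00148), beside 8.98% and 9.46% of all genes. Of 18 IFT-B genes, 17 were tested in the mutant comparisons and 18 by state, and edgeR called 0 in each. An unadjusted p under 0.05 was found for 1, 2 and 4 of them, beside 20.4%, 30.7% and 33.9% of all genes. Of 13 transition zone genes 1 was higher in ciliated mutants, Tmem17 (5.76 ± 1.19 against 3.2 ± 0.945 CPM, edgeR adjusted p = 0.00797), beside 2.45% of all genes. By state 2 genes of that list were lower, beside 9.46% of all genes. They were Cep290 and Ahi1 (9.86 ± 3.17 against 17.1 ± 3.5 CPM, edgeR adjusted p = 0.0476). The median log2 fold change of the 9 members was -0.02 in ciliated mutants, -0.04 in non-ciliated mutants and -0.13 by state, beside -0.02, -0.01 and 0.02 over all genes.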

How the data were processed

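Raw counts per gene symbol were deposited, without normalization. The authors obtained them from paired reads with Rsubread and featureCounts (GRCm38/mm10, R 3.4.4). The submitters' processing notes also name DESeq2 1.18.1. Strand and multi-mapping settings are not given in the sources used here. Clones, states and genotypes were taken from the labels. The tests here used edgeR 4.0.16 under R 4.3.3 (filterByExpr, TMM, glmQLFit, glmQLFTest, 2-sided). A gene was called if its p, adjusted by Benjamini-Hochberg (BH) over all genes tested, was under 0.05. Mutants were compared with controls within a state, and single clones with their 4 controls, over libraries. State and its interaction were tested on clone sums, without pairing of clones across states. Clone means of log2 CPM (prior count 1) were compared by exact 2-sided permutation. An SE is the log2 fold change divided by the square root of F. No pair among 78 replicate pairs was identical (chi-square per degree of freedom 1.99 to 104). Of 24421 symbols, 23204 (95%) matched RefSeq. Genes were named by rule: all 9 members, and at most 3 called genes of each other list. Uncalled genes of a list are named to say what it holds. Markers and neighbours of Bbs1 were named after their values were seen. Kcnk10, beside Ttc8, and the non-members most like the mean of the 9 were named by their values. Alternatives were DESeq2 1.42.0, limma 3.58.1 (voomLmFit), RLE, 2 count filters, stricter calls, blocks and samples left out. No measured value enters the choice of members, but they and the lists were proposed with earlier results of these data known.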

Additional observations from a re-analysis of the deposited data

Results flagged for a closer look

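Among 135 groups of 4 values (4 libraries of a clone for each gene, or the 4 control clones of a state), 12 had 1 value far from the other 3 by Dixon's test, which chance gives in about 1 in 20 groups. Replicate library 1 of the non-ciliated Wdr60 clone stood out for 4 genes, with Ttc8 at 54.9 CPM (others 34.7 to 37.8), Arl6 at 40.4 (28.3 to 29.6), Bbs5 at 19.3 (15.2 to 15.9) and Bbs7 at 8.04 (5.54 to 5.57). In replicate library 1 of non-ciliated control AB, Bbs1 was 26.3 CPM (others 39.4 to 40.1). In non-ciliated control 1, Bbs5 was 12.5 CPM in replicate library 1 (others 14.1 to 14.2) and Bbs7 was 6.68 CPM in replicate library 2 (5.13 to 5.25). In the non-ciliated Wdr34 clone, Bbs7 was 8.32 CPM in replicate library 1 (others 12.7 to 13). Bbs4 was 16.5 CPM in replicate library 3 of ciliated Wdr34 clone 1 (others 13.4 to 13.8) and 15.8 CPM in replicate library 3 of D8 (13.8 to 14.1). Between control clones, Bbs7 was 13.4 CPM in AB (the other 3 non-ciliated controls had 5.57 to 6.65) and Bbip1 was 38 CPM in D8 (25.6 to 27.4 in the other 3 ciliated controls).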

How the results depend on the processing

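Counts of the 9 genes called are given first, with the share of all genes called under the same setting in parentheses. In non-ciliated mutants (1 gene, 15.7%) DESeq2 gave 2 (19.3%). Summed clones gave 0 (0%), as did voomLmFit with a clone block (0.0646%), a log2 fold change of at least 1 as well (3.79%), and an adjusted p under 0.01 (5.72%). By state (1 gene, 18.4%) libraries as samples gave 6 (61%), voomLmFit 2 (26.2%) and the fold limit 0 (6.22%). With the fold limit the ciliated Wdr60 clone had 1 (7.15%), and Wdr34 clones 1 and 3 and the non-ciliated Wdr34 clone had 0 (5.34%, 9.81% and 5.99%). DESeq2 gave 3 (48.9%) in the non-ciliated Wdr60 clone (1 gene, 47.1%). The non-ciliated Wdr34 clone had 1 with a filter of at least 1 count (30.5%) and 1 at an adjusted p under 0.01 (32.8%). Chosen after seeing the data, leaving out the libraries that stood apart gave 2 (28.3%) in non-ciliated mutants and 5 (68.1%) in the non-ciliated Wdr60 clone. Leaving out G7 and control 2 gave 0 (15.4%) and 2 (41.3%), and mutant clones in place of controls gave 0 (12.9%) by state. The cause was not tested.

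With the replicate number as a block, 0 genes were called in non-ciliated mutants (11.8% of all genes, Bbs1 edgeR adjusted p = 0.0575) and 6 by state over libraries (59.9%), and no other count moved beyond 1.5 times. The numbers share only a name, since 14 of 84 ciliated and 3 of 60 non-ciliated same-number pairs correlated over 0.1, and 8 of 28 and 9 of 24 libraries correlated best with their own number.

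Leaving out 1 replicate number or clone gave 0 to 1 genes in ciliated mutants (1.09% to 18.1% of all genes), 0 to 2 in non-ciliated mutants (3.43% to 31.3%), 1 by state (8.44% to 22%) and 0 for the interaction (0%). It gave 3 to 4 in the ciliated Wdr60 clone (33.3% to 48.8%), 1 to 4 in each ciliated Wdr34 clone (24.3% to 39.7% for clone 1, which had 1 without A4, and 44.4% to 60.7% for clone 3), 1 to 5 in the non-ciliated Wdr60 clone (33.4% to 67.7%) and 1 to 3 in the non-ciliated Wdr34 clone (31.1% to 60.8%).

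Signs turned for values that had not been called, and none was called with its sign turned. In ciliated mutants the log2 fold changes with 1 sample left out were -0.39 to 0.18 for Bbs1, -0.15 to 0.02 for Bbs2, -0.03 to 0.07 for Bbs4, -0.23 to 0.31 for Bbs7, -0.02 to 0.21 for Bbs9 and -0.10 to 0.12 for Arl6. In non-ciliated mutants they were -0.12 to 0.13 for Bbs4, -0.07 to 0.18 for Bbs5, -0.39 to 0.54 for Bbs7, -0.13 to 0.01 for Ttc8, -0.12 to 0.14 for Bbs9 and -0.01 to 0.14 for Arl6. By state they were -0.01 to 0.24 for Bbs4 and -0.56 to 0.14 for Bbs7. For Bbs7 in ciliated mutants, summed clones gave 0.01 and voomLmFit 0.09. Without G7 and control 2, Bbs4 was -0.03, Bbs7 0.05 and Arl6 -0.10 in ciliated mutants, and Bbs5 was -0.01, Bbs9 -0.07 and Arl6 -0.01 in non-ciliated mutants. With 38 counts at the lowest, depth limits Bbs7 most.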
